A study of Homo sapiens with 4 samples.

Results

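The transcripts of 2 E protein genes, TCF4 and TCF12, and of the 4 ID genes, ID1, ID2, ID3 and ID4, were followed in 697 cells, an established human line of B-cell precursor acute lymphoblastic leukaemia. The 6 genes were picked out by symbol, with no threshold on their values, although the choice of families was made with earlier results of these data known, and all 6 had a row among the 28814 genes of the count table. Cells had been exposed for 24 h to 1 µM MZ1 or to an equal volume of DMSO, its vehicle, and RNA was sequenced from 2 libraries of each group. MZ1 is a bifunctional molecule: an arm derived from the bromodomain inhibitor JQ1 binds BET proteins, the chromatin readers that help transcription start and elongate, and the other arm recruits the VHL ubiquitin ligase that marks them for destruction. All libraries came from a single line, and whether the replicates were grown as separate cultures is not given in the labels, so the p-values speak only for the differences among these libraries, whose spread may be technical.

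E proteins are basic helix-loop-helix transcription factors that pair with each other or with tissue-restricted relatives and bind the E-box of DNA, CANNTG, where N is any base. ID proteins keep the helix-loop-helix but lack the basic region that touches DNA, so a dimer of an ID protein and an E protein cannot bind, and the balance of the 2 families sets E protein activity. In B-cell development E proteins switch on the early B-lineage genes, and ID2 and ID3 oppose them. TCF4, also called E2-2, is best known as the master factor of plasmacytoid dendritic cells, and TCF12, also called HEB, for its part in T-cell development. The remaining E protein gene, TCF3, is not among the 6; it encodes E12 and E47, the E proteins required for early B-cell development, and its values are given where they change the reading of the others. ID3 is the ID gene most often inactivated in Burkitt lymphoma, and ID4 is known for being silenced by DNA methylation in leukaemias.

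The helix-loop-helix of the ID family is seen in the most alike stretch of 90 coding bases of the 4 genes (GENCODE release 29 transcripts, GRCh38). It is shown because it is the part with which ID proteins bind E proteins and because it tells how far reads of one ID gene can be mistaken for another. Capitals mark the 53 bases (58.9%) that are identical in all 4 genes.
ID1: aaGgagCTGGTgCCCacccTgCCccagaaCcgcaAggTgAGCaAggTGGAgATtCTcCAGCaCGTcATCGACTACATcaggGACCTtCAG
ID2: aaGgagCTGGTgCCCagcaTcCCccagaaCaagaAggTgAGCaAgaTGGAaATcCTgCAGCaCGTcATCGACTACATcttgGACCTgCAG
ID3: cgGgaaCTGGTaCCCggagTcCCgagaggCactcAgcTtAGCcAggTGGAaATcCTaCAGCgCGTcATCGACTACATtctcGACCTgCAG
ID4: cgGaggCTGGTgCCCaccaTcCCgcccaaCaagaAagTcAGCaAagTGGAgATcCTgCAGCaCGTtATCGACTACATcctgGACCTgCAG
Counted from the first base of the start codon, the stretch runs from base 229 to 318 of the coding sequence in ID1, from 139 to 228 in ID2, from 154 to 243 in ID3 and from 226 to 315 in ID4. In this stretch ID1 and ID2 were the most alike pair, with 85.6% of bases identical, and ID1 and ID3 the least alike, with 65.6%. The longest run shared by any pair of complete ID coding sequences was 21 bases, between ID1 and ID2. ID3, which carried most ID reads, shared no run longer than 15 bases with another ID gene.

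The coding sequences of the E protein genes were most alike near their start, in the part that encodes the N-terminal activation domain with which E proteins contact coactivators and corepressors. The stretch is given to show how close the paralogs are. Capitals mark the 75 of 90 bases (83.3%) that TCF4 and TCF12 share.
TCF4: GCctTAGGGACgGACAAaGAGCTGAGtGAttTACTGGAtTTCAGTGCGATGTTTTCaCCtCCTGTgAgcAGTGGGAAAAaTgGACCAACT
TCF12: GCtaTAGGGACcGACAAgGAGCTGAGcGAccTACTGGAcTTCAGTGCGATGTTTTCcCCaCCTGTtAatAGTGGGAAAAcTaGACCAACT
The longest run common to the complete coding sequences of TCF4 and TCF12 was 17 bases. Both genes have many starts, 10 for TCF4 and 5 for TCF12 in the RefSeq table, and the counts per gene do not say which start or isoform was read.

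Each ID gene has a single start in the RefSeq table (GRCh38.p14), and the 250 bases before it are shown because the ID genes did not all move the same way. They are written 5′ to 3′ along the gene, with matches to the E-box CANNTG in capitals. The windows are chr20:31605039-31605288 on the plus strand for ID1, chr2:8681806-8682055 on the plus strand for ID2, chr1:23559502-23559751 on the minus strand for ID3 and chr6:19837120-19837369 on the plus strand for ID4. In GENCODE release 29 the ID2 gene spans 8678845 to 8684453 and the ID3 gene 23557918 to 23559794. Their windows lie within these spans and so are not upstream of every annotated transcript.
ID1: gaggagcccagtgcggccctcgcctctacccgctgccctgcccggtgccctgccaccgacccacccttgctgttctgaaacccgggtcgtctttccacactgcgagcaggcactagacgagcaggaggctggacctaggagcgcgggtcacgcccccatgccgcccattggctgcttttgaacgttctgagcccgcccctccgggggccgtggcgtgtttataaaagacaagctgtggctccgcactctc
ID2: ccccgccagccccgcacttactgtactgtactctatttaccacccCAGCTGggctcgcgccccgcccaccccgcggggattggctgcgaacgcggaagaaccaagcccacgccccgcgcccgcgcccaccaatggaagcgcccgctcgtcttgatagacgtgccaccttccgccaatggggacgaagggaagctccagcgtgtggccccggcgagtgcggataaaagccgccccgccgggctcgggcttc
ID3: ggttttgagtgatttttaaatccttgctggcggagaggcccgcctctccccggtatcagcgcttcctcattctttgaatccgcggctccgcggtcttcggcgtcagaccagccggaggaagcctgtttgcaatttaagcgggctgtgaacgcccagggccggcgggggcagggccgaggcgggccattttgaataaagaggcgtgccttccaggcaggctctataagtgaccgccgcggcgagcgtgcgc
ID4: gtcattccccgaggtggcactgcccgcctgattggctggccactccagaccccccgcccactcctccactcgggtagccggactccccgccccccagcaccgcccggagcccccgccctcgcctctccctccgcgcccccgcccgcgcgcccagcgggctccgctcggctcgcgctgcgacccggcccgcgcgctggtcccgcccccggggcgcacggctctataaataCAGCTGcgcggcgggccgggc
An E-box was present in the ID2 and ID4 windows, once in each and as CAGCTG, and absent from the ID1 and ID3 windows. Among 35116 RefSeq windows of 250 bases, 61.8% held a CANNTG and 14% a CAGCTG, searched on both strands. The E-box CACGTG, preferred by MYC, was in none of the 4 windows and in 6.34% of all windows, and GGCGCC, an element bound by BMP-activated SMAD proteins, was in none of the 4 and in 16.4% of all. CAGGTG was likewise in none of the 4 and in 17.5% of all windows. A TATAAA box lay 31 bases before the start of ID1, where an overlapping match to the other strand began 33 bases before the start, and 29 bases before the start of ID4, and 10.7% of all windows held one. CCAAT or its complement was found in ID1 and ID4 once and in ID2 3 times, against 32% of all windows with at least 1, and TGACG, the core of the cyclic AMP response element, was found in ID3 alone, against 21.2% of all windows. ID1 and ID2 were called higher with MZ1 and ID3 and ID4 lower, and a link of these motifs to the direction was not tested. As given below, ID1 and ID4 were bound to differ once they were tested. A match is a run of letters and not a shown binding site.

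The libraries held 14544789 and 14246367 counts for MZ1 and 16005427 and 16488005 for DMSO. Levels are counts scaled to library size (CPM) after TMM normalisation, which assumes that most genes do not move, and log2 fold changes are MZ1 over DMSO. Genes with a Benjamini-Hochberg adjusted p below 0.05 in edgeR's quasi-likelihood test over 16862 genes were called. The treatment moved most of the transcriptome: 84.2% of tested genes were called, 42.8% higher and 41.3% lower, and for 91.3% the libraries of the 2 groups did not overlap. With 2 libraries a group the smallest two-sided p of an exact permutation test is 0.333, and the calls therefore depend on edgeR sharing its estimate of the spread among genes. The 10 markers of B-cell precursors fixed for this line all had reads in every library, with a summed level of 1090 and 1141 CPM with MZ1 and 3813 and 3822 CPM with DMSO, and all 10 were lower. Of 8 myeloid markers 5 had a row, of which 4 were higher and 1 lower, with a summed level of 28.3 and 24.9 CPM with MZ1 and 6.66 and 5.31 CPM with DMSO, and MPO was at 0 in both DMSO libraries. The 4 higher markers passed the count filter only through their MZ1 libraries, so they were bound to be higher once they were tested. Of 8 T-cell markers 3 had a row and none of these was a CD3 gene, with a summed level of 4.17 and 3.90 CPM with MZ1 and 7.64 and 7.43 CPM with DMSO. The 2 tested went opposite ways. TRAC was called lower, at 0 in both MZ1 libraries against 6.96 and 6.90 CPM with DMSO. CD8A was called higher, at 4.10 and 3.83 CPM with MZ1 against 0.67 and 0.47 CPM with DMSO. TRAC passed the count filter only through its DMSO libraries and was bound to be lower once tested. CD8A would not have passed on its DMSO libraries alone, so its direction is not independent of the filter. Of 6 stromal markers 3 had a row, with a summed level of 33.5 and 31.1 CPM with MZ1 and 106.6 and 106.3 CPM with DMSO, nearly all of it from PDGFRB and COL1A1. Mitochondrially encoded genes took 8.98% and 9.26% of counts with MZ1 and 5.82% and 5.48% with DMSO. The part of these shifts in the results below was not tested, and in bulk RNA fewer cells of a type and less RNA per cell cannot be told apart.

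With MZ1 and TMM scaling TCF4 and TCF12 fell by less than 1.5-fold, TCF3 fell 2.50-fold, the dominant ID transcript ID3 fell 4.52-fold, ID4 fell to almost no reads, and the scarce ID1 and ID2 transcripts rose. All 6 genes were called, 2 higher and 4 lower, where 84.2% of all tested genes were called, 42.8% higher and 41.3% lower, and for all 6 the libraries of the 2 groups did not overlap, where 91.3% of tested genes did not. Read against those shares, the counts are no result about the family. At least 2-fold changes were found for 4 of the 6, all of them ID genes, against 55.2% of tested genes. ID1 passed the count filter only through its MZ1 libraries and ID4 only through its DMSO libraries, so these 2 genes were bound to differ once they were tested.

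**Figure D1:**
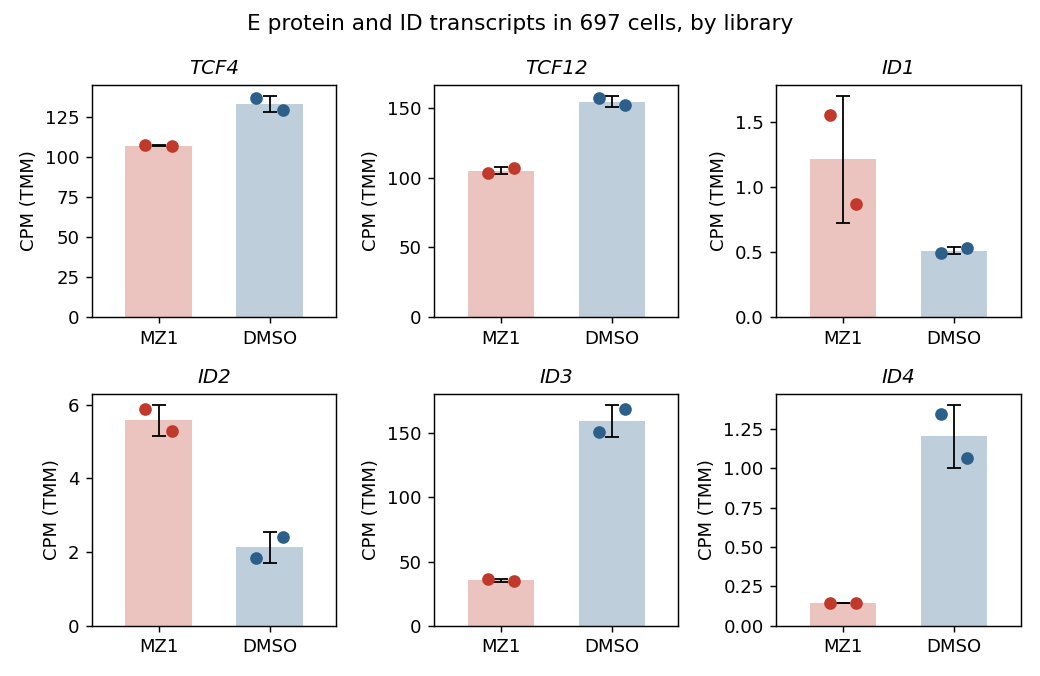
TMM-scaled CPM (vertical axes, each from 0) of the 6 genes, with a bar at the mean, an error bar of 1 SD and a point for each of 2 libraries, MZ1 in red and DMSO in blue. TCF4 lies at about 107 CPM with MZ1 against 130 to 137 CPM with DMSO, whereas ID3 lies at 34.6 and 36.1 CPM with MZ1 against 151 and 169 CPM with DMSO; ID1, ID2 and ID4 are at 5.87 CPM or less in every library.

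TCF4 (ENSG00000196628; chromosome 18, 55222331 to 55664787, minus strand, GRCh38) had 1517 and 1480 reads with MZ1 and 2236 and 2196 with DMSO. This was 107.3 and 107.0 CPM with MZ1, against 136.6 and 129.6 CPM with DMSO. The MZ1 libraries were nearly equal to each other and below both DMSO libraries. TCF4 averaged 107 ± 0.24 CPM with MZ1 and 133 ± 5.0 CPM with DMSO (SD, n = 2 each), or 1.24-fold lower. The log2 fold change was −0.31 ± 0.05 (± SE; adjusted p = 3.69e-06 in edgeR). Of all tested genes, 14.9% had a smaller change in either direction. This call depended on the scaling: with upper-quartile scaling, which shifted all genes up by a median of 0.27 on the log2 scale, TCF4 was at −0.04 (edgeR adjusted p = 0.451).

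TCF12 (ENSG00000140262; chromosome 15, 56918623 to 57299281, plus strand) had 1458 and 1475 reads with MZ1 and 2578 and 2574 with DMSO, or 103.1 and 106.6 CPM with MZ1 against 157.5 and 151.9 CPM with DMSO. Its fall was larger than that of TCF4 in these libraries, and the groups were well apart. TCF12 averaged 105 ± 2.5 CPM with MZ1 and 155 ± 4.0 CPM with DMSO, a log2 fold change of −0.56 ± 0.05 (edgeR adjusted p = 1.3e-10), or 1.48-fold lower. It was called lower under all 12 alternatives, between −0.64 and −0.29. TCF12 made up 49.0% and 49.9% of the reads of these 2 E protein genes with MZ1 and 53.6% and 54.0% with DMSO. These shares did not overlap between groups, and the exact permutation p of 0.333 (two-sided) is the smallest that 4 libraries can give.

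ID3 (ENSG00000117318; chromosome 1, 23557918 to 23559794, minus strand) was the one ID gene read in depth. It had 510 and 479 reads with MZ1 and 2467 and 2857 with DMSO, which is 36.1 and 34.6 CPM with MZ1 against 151 and 169 CPM with DMSO. Every MZ1 library was far below every DMSO library. The mean was 35.4 ± 1.0 CPM with MZ1 and 160 ± 13 CPM with DMSO (SD, n = 2 each), a log2 fold change of −2.17 ± 0.06 (edgeR adjusted p = 2.04e-20). Of all tested genes, 10.4% had a lower log2 fold change. ID3 was called lower under all 12 alternatives, between −2.30 and −1.90, and no annotated gene shares its exons.

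ID4 (ENSG00000172201; chromosome 6, 19837386 to 19840684, plus strand) was close to the limit of detection. It had 2 and 2 reads with MZ1 and 22 and 18 with DMSO, or 0.142 and 0.145 CPM with MZ1 against 1.34 and 1.06 CPM with DMSO. Both MZ1 libraries were below both DMSO libraries. The ratio of summed reads, scaled for depth, was 0.119 (exact 95% counting interval 0.031 to 0.33), and edgeR gave a log2 fold change of −3.00 ± 0.64 (adjusted p = 1.09e-04). The antisense gene LNC-LBCS, which lies on the other strand within the ID4 locus without sharing exonic bases, had 2 and 1 reads with MZ1 and 9 and 7 with DMSO and was not tested.

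ID2 (ENSG00000115738; chromosome 2, 8678845 to 8684453, plus strand) had 83 and 73 reads with MZ1 and 30 and 41 with DMSO. This was 5.87 and 5.28 CPM with MZ1 against 1.83 and 2.42 CPM with DMSO, so that both MZ1 libraries were above both DMSO libraries. ID2 averaged 5.57 ± 0.42 CPM with MZ1 and 2.13 ± 0.41 CPM with DMSO, a log2 fold change of 1.39 ± 0.26 (edgeR adjusted p = 2.6e-05), or 2.61-fold higher. It was called higher under all 12 alternatives, between 1.16 and 1.66. The antisense gene ID2-AS1 had 22 and 14 reads with MZ1 and 1 and 3 with DMSO. ID2-AS1 shares 38 exonic bases with ID2, or 1.72% of the ID2 exonic length, and whether reads were counted by strand is not given, so reads from these bases may belong to either gene.

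ID1 (ENSG00000125968; chromosome 20, 31605283 to 31606515, plus strand) had 22 and 12 reads with MZ1 and 8 and 9 with DMSO, or 1.56 and 0.867 CPM with MZ1 against 0.489 and 0.531 CPM with DMSO. The MZ1 libraries lay above the DMSO libraries but differed from each other by more than the DMSO libraries did. The ratio of summed reads was 2.38 (exact 95% counting interval 1.29 to 4.55), and edgeR gave a log2 fold change of 1.24 ± 0.49 (adjusted p = 0.0223). This call was the least secure of the 6: of 11 alternatives that tested ID1, 5 kept it, and without MZ1 replicate 1 the change was 0.76 (adjusted p = 0.361). These intervals include counting error alone, because reads of the 2 libraries of a group were summed and the spread between libraries was left out. The reads also carry no molecular identifiers and may repeat a molecule, so the intervals may be too narrow.

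**Figure D2:**
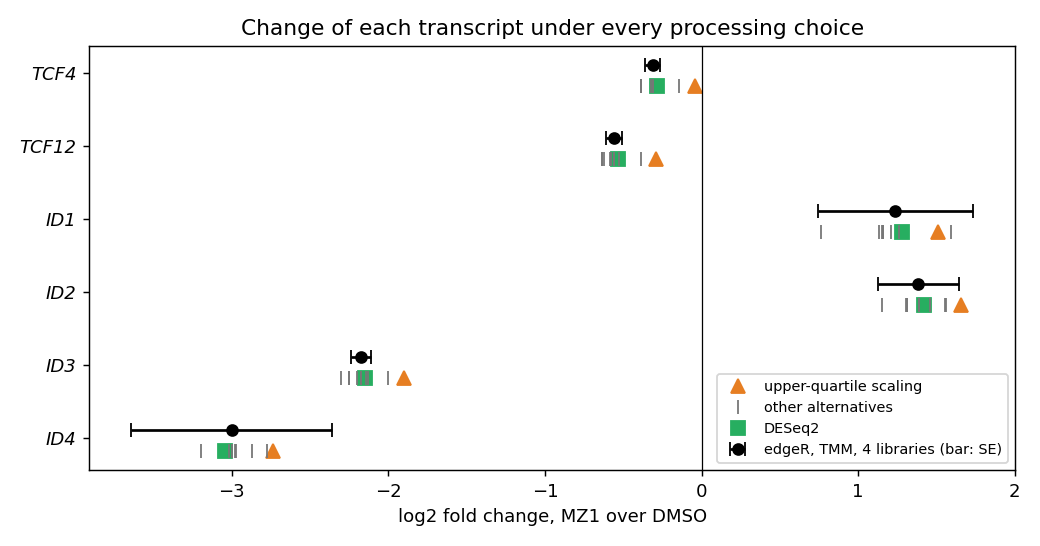
Log2 fold change, MZ1 over DMSO (horizontal axis), of each gene in edgeR with TMM scaling and all 4 libraries (black point, bar of 1 SE) and under each alternative (triangle, upper-quartile scaling; square, DESeq2; ticks, all others). No gene changed sides of 0, TCF4 came closest to it at −0.04 with upper-quartile scaling, and the ID1 values spread from 0.76 to 1.59.

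Summed over the 4 ID genes, reads were 3.87-fold lower with MZ1, and summed over TCF4 and TCF12 they were 1.36-fold lower, or 1.98-fold lower once TCF3 was added. TCF4 and TCF12 together were at 210 and 214 CPM with MZ1 and at 294 and 281 CPM with DMSO. The 4 ID genes together were at 43.6 and 40.9 CPM with MZ1 and at 154 and 173 CPM with DMSO. There were thus 0.207 and 0.192 ID reads per TCF4 and TCF12 read with MZ1, against 0.525 and 0.613 with DMSO, a mean 2.85-fold lower. This ratio is formed within each library and does not depend on the scaling between libraries; the groups did not overlap, and the exact permutation p of 0.333 (two-sided) is the smallest possible. ID3 supplied 82.7% and 84.6% of ID reads with MZ1 and 97.6% and 97.7% with DMSO. ID2 was the next most read ID gene in every library. These sums weigh genes by reads and not by protein.

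TCF3 (ENSG00000071564; chromosome 19, 1609290 to 1652605, minus strand) took more reads, not scaled for length, than TCF4 and TCF12 together in every library. It was at 261 and 256 CPM with MZ1, against 646 and 647 CPM with DMSO. Both MZ1 libraries were far below both DMSO libraries, with a log2 fold change of −1.32 ± 0.04 (edgeR adjusted p = 3.73e-20), and TCF3 was called lower under all 12 alternatives, between −1.40 and −1.05. With TCF3 added, E protein reads came to 472 and 470 CPM with MZ1 and to 940 and 928 CPM with DMSO, and TCF3 made up 55.4% and 54.5% of them with MZ1 and 68.7% and 69.7% with DMSO. There were then 0.0925 and 0.0871 ID reads per E protein read with MZ1, against 0.164 and 0.186 with DMSO, a mean 1.95-fold lower in place of 2.85-fold. The groups again did not overlap, at the same smallest exact permutation p of 0.333 (two-sided). TCF3 and the sums with it were added after the values had been seen.

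**Figure D3:**
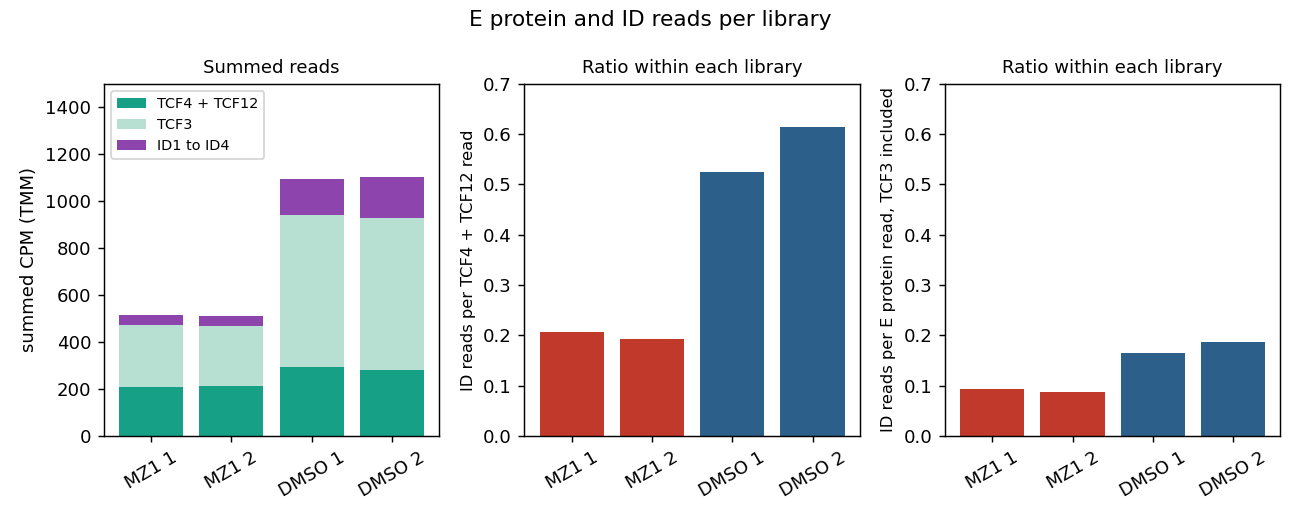
Left, TMM-scaled CPM of TCF4 and TCF12 (dark green), TCF3 (light green) and the ID genes (purple), stacked for each of 4 libraries. Middle and right, ID reads per read of TCF4 and TCF12 and per E protein read with TCF3 included, MZ1 in red and DMSO in blue: 0.207 and 0.192 with MZ1 against 0.525 and 0.613 with DMSO without TCF3, and 0.0925 and 0.0871 with MZ1 against 0.164 and 0.186 with DMSO with it.

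Levels of different genes were compared per kilobase, once by the length of all annotated exons and once by the median length of the coding transcripts, since TCF4 has 27828 bases of exons in all but a median coding transcript of 2572 bases. By the second length, the order with MZ1 was TCF4 at 41.7 ± 0.09, ID3 at 28.3 ± 0.82, TCF12 at 26.5 ± 0.62, ID2 at 4.09 ± 0.31, ID1 at 1.09 ± 0.44 and ID4 at 0.061 ± 0.001 CPM per kb (SD, n = 2). With DMSO it was ID3 at 128 ± 10, TCF4 at 51.7 ± 1.9, TCF12 at 39.1 ± 1.0, ID2 at 1.56 ± 0.30, ID4 at 0.513 ± 0.085 and ID1 at 0.458 ± 0.027 CPM per kb. ID1 and ID4 overlapped with DMSO and cannot be ordered there, and ID3 and TCF12 were close but did not overlap with MZ1. ID3 was thus the highest of the 6 with DMSO and not with MZ1 by this length. By the length of all exons ID3 stayed highest in both groups, at 19.7 ± 0.57 CPM per kb with MZ1 and 88.8 ± 7.0 with DMSO, followed by TCF12 at 11.1 ± 0.26 with MZ1 and 16.4 ± 0.42 with DMSO, so the place of TCF4 and TCF12 relative to ID3 rests on which transcripts are read.

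**Figure D4:**
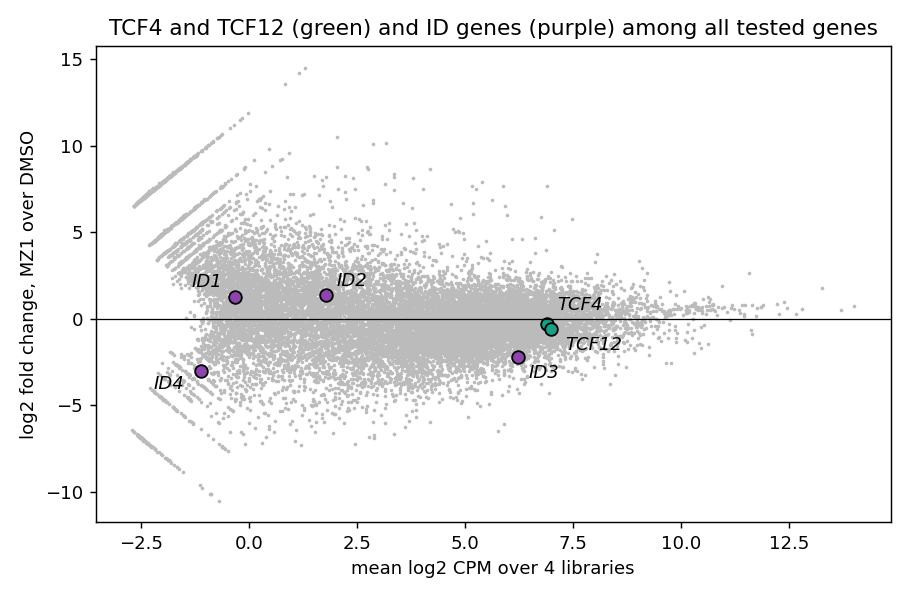
Mean log2 CPM over the 4 libraries (horizontal axis) against log2 fold change, MZ1 over DMSO (vertical axis), for 16862 tested genes (grey), with TCF4 and TCF12 in green and the ID genes in purple. TCF4, TCF12 and ID3 stand among the well-read genes, with 89.9%, 90.8% and 86.7% of tested genes below them in mean CPM, whereas ID1 and ID4 lie at the low end, with 9.05% and 5.01% below them. Fold changes on the straight lines at the left belong to genes with few or 0 reads in a group.

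Genes around the 2 families were grouped in 13 lists, with 122 genes in all, of which 84 were tested, and 36 of these were called higher and 41 lower. Among all tested genes 42.8% were higher and 41.3% lower, and the median log2 fold change was 0.05. Tissue-restricted partners of E proteins were nearly all unread: 10 of 18 had no row and 2 were tested. LYL1, the haematopoietic partner related to TAL1, fell to 6.08 and 6.94 CPM with MZ1, against 45.0 and 45.2 CPM with DMSO (log2 fold change −2.79 ± 0.11; edgeR adjusted p = 1.56e-17). NHLH1, a neuronal partner, was at 2.76 and 2.75 CPM with MZ1 and at 1.16 and 1.42 CPM with DMSO and was called higher. TAL1 itself had 1 and 4 reads with MZ1 and 0 and 0 with DMSO.

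Hairy-related repressors, another helix-loop-helix family, split into 3 higher and 2 lower of 5 tested (median 0.80). BHLHE40, a repressor induced by stress and differentiation, rose to 29.6 and 28.1 CPM with MZ1, against 1.53 and 2.06 CPM with DMSO. HEY2 rose by 1.31 ± 0.20 and HES6 by 0.80 ± 0.13 on the log2 scale. HES7 fell by 2.10 ± 0.32, and HES2 had 1 read with MZ1 and 49 with DMSO, a scaled ratio of 0.0243 (exact 95% counting interval 0.0006 to 0.142). HES2 passed the count filter only through its DMSO libraries, so it was bound to be lower once tested. HES1 had no row.

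Coregulators of E proteins and of the LIM complex that holds E protein dimers together were 6 higher and 4 lower of 12 tested (median 0.17). The adaptor LDB1 rose to 239 and 238 CPM with MZ1, against 152 and 156 CPM with DMSO (log2 fold change 0.63 ± 0.05). SSBP3, which stabilises LDB1, rose by 1.26 ± 0.06, LMO4 by 0.85 ± 0.05 and CBFA2T2, a corepressor of the ETO family, by 0.87 ± 0.07. Its paralog CBFA2T3 went the other way, at 21.2 and 24.6 CPM with MZ1 and 42.6 and 43.3 CPM with DMSO (−0.91 ± 0.09). The acetyltransferase KAT2A fell to 15.7 and 14.7 CPM with MZ1, against 102 and 96.2 CPM with DMSO, while its paralog KAT2B was at 14.3 and 17.4 CPM with MZ1 and 13.1 and 14.0 CPM with DMSO and was not called (edgeR adjusted p = 0.115). LMO2, the LIM partner of LYL1 and TAL1, was called lower by −0.61 ± 0.27, a call lost under 8 of 12 alternatives, DESeq2 and each left-out library among them. TRRAP was called lower by −0.14 ± 0.05 and reversed to 0.13 with upper-quartile scaling and to 0.03 with a stricter count filter.

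BMP signalling is the best known input of ID genes: ligands bind type I and type II receptors, which phosphorylate SMAD1, SMAD5 and SMAD9, and these enter the nucleus with SMAD4 and switch on ID1, ID2 and ID3. Of 8 ligands of the BMP and TGF-beta families 3 were tested. BMP2 fell to 3.47 and 4.48 CPM with MZ1, against 7.88 and 9.97 CPM with DMSO. TGFB1 rose to 204 and 203 CPM with MZ1, against 144 and 136 CPM with DMSO. TGFB3 was called lower by −0.67 ± 0.24, but not with upper-quartile scaling (−0.40; edgeR adjusted p = 0.121), without DMSO replicate 2 (−0.60) or by DESeq2 (−0.64; adjusted p = 0.109).

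Of 7 tested receptors 5 were higher and 2 lower (median 0.53). The type II receptors BMPR2 and ACVR2A both rose: BMPR2 was at 163 and 155 CPM with MZ1 and 52.4 and 55.3 CPM with DMSO (log2 fold change 1.56 ± 0.06), and ACVR2A rose by 2.32 ± 0.15. ACVR1, a type I receptor of BMPs, was at 23.6 and 21.0 CPM with MZ1 and 6.72 and 7.85 CPM with DMSO (1.61 ± 0.14). The other BMP type I receptors were hardly read: BMPR1B had no row and BMPR1A had 0 and 0 reads with MZ1 and 0 and 2 with DMSO. TGFBR2 rose by 0.53 ± 0.05 and TGFBR1 by 0.43 ± 0.07, whereas the type II receptor ACVR2B fell by 0.87 ± 0.09 and the co-receptor endoglin, ENG, by 1.12 ± 0.05.

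Of the 6 SMAD effectors 3 were called higher and 2 lower (median 0.06), and those of the BMP branch moved both ways. SMAD5 rose to 123 and 124 CPM with MZ1, against 87.6 and 83.7 CPM with DMSO, and the shared partner SMAD4 rose to 126 and 129 CPM with MZ1, against 77.3 and 75.8 CPM with DMSO. SMAD1 fell to 28.6 and 32.0 CPM with MZ1, against 43.9 and 40.9 CPM with DMSO, and SMAD9 fell to 12.4 and 13.6 CPM with MZ1, against 29.8 and 28.0 CPM with DMSO. Of the TGF-beta branch, SMAD2 was at 71.5 and 71.0 CPM with MZ1 and 73.0 and 68.6 CPM with DMSO and was not called (edgeR adjusted p = 0.879). SMAD3 was called higher by 0.11 ± 0.05, but the call was lost under 7 of 12 alternatives, each left-out library among them.

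Of 8 inhibitors of these pathways 4 were higher and 3 lower (median 0.17). NOG, which encodes the secreted BMP antagonist noggin, fell to 0.849 and 0.723 CPM with MZ1, against 32.2 and 29.2 CPM with DMSO, a log2 fold change of −5.27 ± 0.20 (edgeR adjusted p = 2.82e-18). The inhibitory SMAD genes went in opposite directions, with SMAD6, the inhibitor of the BMP branch, lower by −1.23 ± 0.23 and SMAD7, which acts on both branches, higher by 1.88 ± 0.20. SKIL and SKI, corepressors that bind SMAD complexes, rose: SKIL was at 149 and 158 CPM with MZ1 and 15.6 and 13.3 CPM with DMSO, and SKI was at 265 and 251 CPM with MZ1 and 72.5 and 73.0 CPM with DMSO. The ubiquitin ligase SMURF1 fell by 0.95 ± 0.05 and its paralog SMURF2 rose by 0.43 ± 0.10, while the pseudoreceptor BAMBI was at 32.5 and 31.3 CPM with MZ1 and 32.2 and 36.1 CPM with DMSO and was not called (edgeR adjusted p = 0.298).

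Both listed transcription factors that act on ID genes rose. EGR1, an immediate early factor that induces Id3 in mouse thymocytes, was at 110 and 104 CPM with MZ1 and 5.44 and 5.25 CPM with DMSO (log2 fold change 4.32 ± 0.09; edgeR adjusted p = 2.22e-23). ATF3, a stress factor that represses ID1 with SMAD3 in human epithelial cells, was at 51.5 and 57.0 CPM with MZ1 and 8.68 and 10.2 CPM with DMSO (2.53 ± 0.10). Of 5 genes of ID protein turnover 3 were higher and 2 lower. USP1, the deubiquitinase that protects ID proteins, fell to 84.2 and 82.7 CPM with MZ1, against 157 and 153 CPM with DMSO, and its partner WDR48 fell by 1.18 ± 0.10 on the log2 scale. FZR1, an activator of the anaphase-promoting complex that degrades ID proteins, rose by 0.49 ± 0.06, and COPS5 of the COP9 signalosome rose by 0.59 ± 0.05. Of the pocket proteins that ID2 can bind, RBL1 fell by 0.95 ± 0.08 and RBL2 by 0.74 ± 0.06, and RB1 was at 173 and 181 CPM with MZ1 and 182 and 173 CPM with DMSO and was not called (edgeR adjusted p = 0.864).

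**Figure D5:**
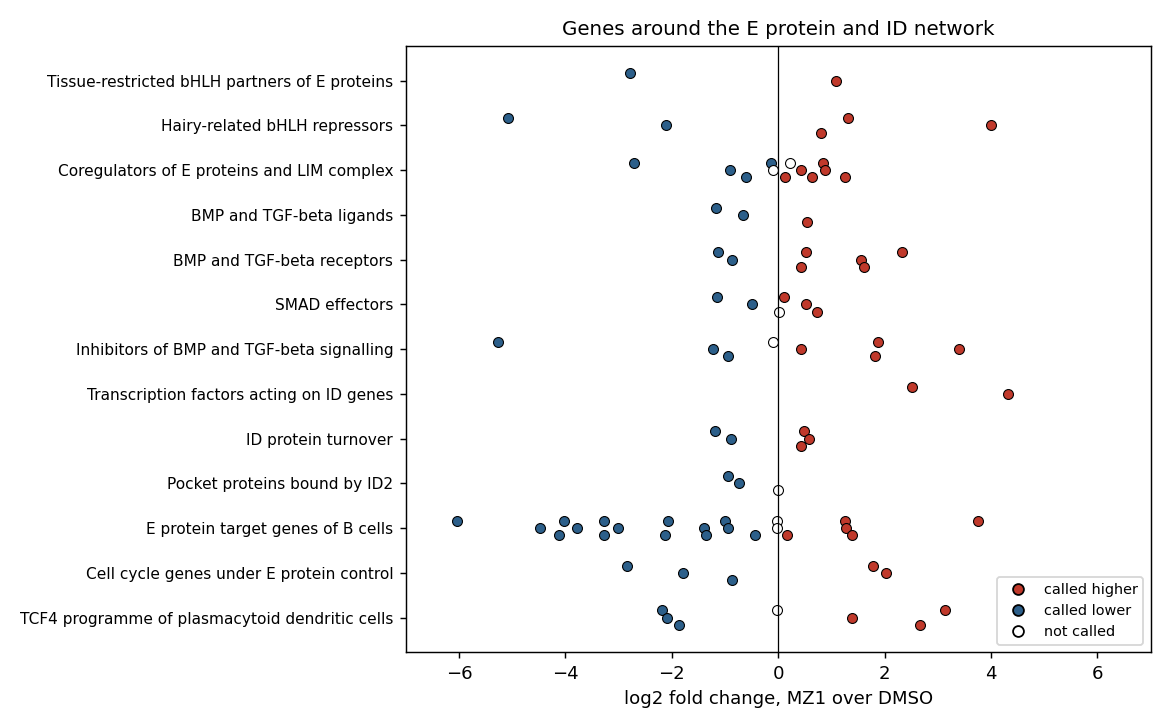
Log2 fold change, MZ1 over DMSO (horizontal axis), of each tested gene of the 13 lists (rows), red where called higher, blue where called lower and white where not called; a gene in several lists appears in each. Of 22 tested E protein target genes 15 lie in blue, and in the 5 lists of BMP and TGF-beta signalling and ID gene transcription factors red and blue points stand on both sides except for EGR1 and ATF3, which are both red.

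Known E protein target genes of B cells were 15 lower and 5 higher of 22 tested (median −1.37). Many of these genes depend on other factors too, and several are markers of the line. The surrogate light chain gene IGLL1 had the lowest fold change, at 7.50 and 7.37 CPM with MZ1 against 500 and 484 CPM with DMSO, and DNTT had a log2 fold change of −3.79 ± 0.05. IL7R was at 68.9 and 74.4 CPM with MZ1 and 689 and 692 CPM with DMSO, and CCND3, the D cyclin gene that E proteins drive in Burkitt lymphoma, was at 118 and 113 CPM with MZ1 and 1112 and 1114 CPM with DMSO, both called lower. PTPN6, a listed phosphatase gene that tempers B-cell receptor signals, fell to 5.38 and 6.87 CPM with MZ1, against 95.5 and 105 CPM with DMSO. The list does not record whether E proteins activate or repress each gene, so its direction gives no measure of their activity. IRF4 and IRF8, FOXO1 and CXCR4 rose. RAG1 was at 104 and 117 CPM with MZ1 and 112 and 111 CPM with DMSO, and SPIB at 31.1 and 31.1 CPM with MZ1 and 30.3 and 32.4 CPM with DMSO, and neither was called. Beside this list's median of −1.37, TCF4 was at −0.31, TCF12 at −0.56 and TCF3 at −1.32. The differences and any link between these values were not tested.

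Of 5 tested cell cycle genes under E protein control, CDKN1A (p21) and CDKN1C (p57), which E proteins activate, rose by 2.03 ± 0.04 and 1.78 ± 0.24. CDKN2A fell to 2.33 and 1.52 CPM with MZ1, against 5.68 and 7.73 CPM with DMSO. CDK6 fell by 2.84 ± 0.09 and GFI1, a transcriptional repressor of lymphoid cells, by 0.88 ± 0.10. The genes that TCF4 governs in plasmacytoid dendritic cells were 3 higher and 3 lower of 7 tested (median −0.02). IL3RA, the receptor known as CD123, rose to 56.4 and 55.2 CPM with MZ1, against 6.60 and 6.14 CPM with DMSO, and IRF7 to 86.9 and 83.8 CPM with MZ1, against 12.5 and 14.5 CPM with DMSO. BCL11A, a partner of TCF4 in those cells, fell to 22.1 and 19.4 CPM with MZ1, against 93.8 and 83.8 CPM with DMSO, and RUNX2 by 1.86 ± 0.37. PTCRA, also called lower, had 4 and 1 reads with MZ1 and 17 and 11 with DMSO. It passed the count filter only through DMSO and was bound to be lower once tested. CLEC4C, their defining surface gene, had no row, and LILRA4 had 0 and 1 reads with MZ1 and 2 and 0 with DMSO.

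Among 8778 protein-coding genes of at least 10 CPM, the 3 with the profile nearest to each member over the 4 libraries were found by the Euclidean distance of log2 CPM after taking away each gene's mean. For ID3 these were BTN3A3 (distance 0.026), UROD (0.043) and OBSL1 (0.054), and OBSL1 was at 34.2 and 32.7 CPM with MZ1 and 147 and 156 CPM with DMSO. For TCF4 they were THOC2 (0.019), SLC45A3 and KCMF1 (0.030 each), and for TCF12 RIC8B (0.014), NIN (0.023) and LSG1 (0.024). For ID2 they were RAPGEFL1 (0.066), HEMK1 (0.123) and PILRB (0.137). The thinly read ID4 and ID1 had their nearest profiles farther off, CARNMT1 at 0.161 for ID4 and NRARP at 0.323 for ID1. With 4 libraries in 2 groups such likeness reflects mainly the size of the change.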

How the data were processed

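RNA-seq of 697 cells with MZ1 (2 libraries) was compared with DMSO (2 libraries). TRIzol extraction of total RNA and the Illumina TruSeq RNA kit are stated per the labels. The authors deposited raw counts of reads for each gene, per the file headers. The aligner was HISAT2 2.2.0 and the build hg38, per the submitters' processing notes. How reads were counted, with which annotation and strand setting, is not given in the sources used here. Symbols came from a gene name table (28597 of 28814 IDs) and positions and lengths from GENCODE release 29 (GRCh38, the same build).

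Counts were tested in R 4.3.3 with edgeR 4.0.16 (filterByExpr by group with a minimum count of 10, TMM, glmQLFit and glmQLFTest, treatment as the only term), adjusted over 16862 genes. Standard errors come from the coefficient and the F statistic and have no meaning for a gene at 0 reads in a group. Library totals of 14246367 to 16488005 make 0.655 CPM the filter's limit. Alternatives were other scalings, filters, DESeq2 1.42.0, limma-voom (limma 3.58.1), a replicate block and leaving out each library. The analysis was tested on simulated data in which only a small part of the genes changed. That test cannot speak for the scaling of data in which 84.2% of tested genes were called. Genes named were the 6 members, all tested members of lists of 6 or fewer, up to 4 called members in each direction of longer lists by smallest adjusted p at a mean of at least 1 CPM, and the 3 nearest profiles; TCF3, PTPN6, TGFBR1, TAL1, HES1, KAT2B, SMAD2, RAG1, SPIB, BAMBI, marker genes and untested genes were added after their values were seen. PTCRA was named because of how it passed the count filter. Among named members and list genes the largest exonic share with another gene was 19.6% (SPIB). The members and lists were chosen with earlier results of these data known.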

Additional observations from a re-analysis of the deposited data

How the results depend on the processing

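TCF12, ID2 and ID3 kept their direction and their call under all 12 alternatives. ID4 was called in the 11 that tested it, which says nothing of stability, since it passed the count filter only through DMSO. TCF4 kept its call except with upper-quartile scaling (−0.041), which raised the share of calls that were higher to 58.5%, in place of 50.9%. ID1 lost its call without a count filter (1.16), with DESeq2 (1.28), with the replicate block (1.21) and without 3 of the libraries in turn, with a range of 0.76 to 1.59 over the 4 libraries left out; a lone library was then assumed to vary like the others. The stricter filter removed ID1 and ID4 from the tests. Leaving out libraries gave −0.39 to −0.31 for TCF4, −0.63 to −0.53 for TCF12, 1.16 to 1.56 for ID2, −2.30 to −2.13 for ID3 and −3.20 to −2.87 for ID4. Summed TCF4 and TCF12 levels were 233 CPM with MZ1 and 262 CPM with DMSO with upper-quartile scaling and 206 CPM with MZ1 with library totals alone, in place of 212 and 288 CPM; summed ID levels were 46.4 CPM with MZ1 and 149 CPM with DMSO with upper-quartile scaling, in place of 42.3 and 164 CPM. With TCF3 added, a sum chosen after seeing the data, E protein levels were 471 CPM with MZ1 and 934 CPM with DMSO. The cause of the scaling shift was not tested. Counts of all genes and of listed genes called stayed within 1.5 times under every alternative. Replicate numbers showed no pairing (the correlation of same-numbered deviations was 0.009), so the block fit is given only here; among the genes named it also ended the calls of LMO2 (−0.61) and SMAD3 (0.11). With upper-quartile scaling KAT2B (0.50), SMAD2 (0.28), RB1 (0.26), RAG1 (0.26) and SPIB (0.26), not called with TMM, were called higher, and the call of TGFB3 (−0.40) was lost. Depth limits ID4, ID1 and ID2, which had 4, 17 and 71 reads in the group where each was lower.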

Other observations

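The nearest tested protein-coding genes on either side of the 6 loci were read as a description of position, a choice made after the members' values were seen. Of the 12 neighbours 10 were called lower and 2 higher, where 41.3% of all tested genes were lower and 42.8% higher. E2F2, which encodes a cell cycle factor and lies 26.7 kb from ID3, was at 57.5 ± 3.1 CPM with MZ1 and 108 ± 4.7 CPM with DMSO (SD, n = 2 each; log2 fold change −0.91 ± 0.06), and RPL11, 131.9 kb away on the other side, was higher by 0.60 ± 0.04. KIDINS220, 36.6 kb from ID2, was at 261 ± 5.4 CPM with MZ1 and 95.2 ± 2.4 CPM with DMSO (1.46 ± 0.05), and RNF144A, 1610.6 kb from ID2 on the other side, fell by 1.24 ± 0.09. Both neighbours of ID1, a gene that was called higher, were lower, with log2 fold changes of −1.60 ± 0.06 for HM13 and −1.40 ± 0.10 for BCL2L1. The neighbours of TCF12, ZNF280D and POLR2M, had log2 fold changes of −2.46 ± 0.24 and −1.47 ± 0.12, against −0.56 for TCF12.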
